A study of Mus musculus with 3 samples.

Results

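Granule-rich neutrophils are the cells described here: neutrophils of the mouse fetal brain that carry transcripts of the secondary granule. They were selected on measured values. A kept cell had at least 300 detected genes and at most 10% of its UMIs (unique molecular identifiers, which count captured transcripts) from mitochondrial genes. A member had at least 20 UMIs of S100a8 and at least 20 of S100a9, the subunits of the neutrophil protein calprotectin. It also had at least 20 UMIs of Ngp, Camp and Ltf together, which encode secondary granule proteins, and no UMI of P2ry12, Tmem119 or Mrc1, which mark microglia and brain border macrophages. This selection took 407 of 44013 cell barcodes: 167 in the saline library, 183 in the Ncr1-cre polyIC library and 57 in the Gzmb-cko library. A further 381 cells passed the same limits except that their Ngp, Camp and Ltf sum was under 20 (78, 249 and 54 in that order), and they are called other neutrophils.

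The study profiled CD11b+ cells of E18.5 fetal brains (embryonic day) by droplet sequencing that reads the 3' end of transcripts. CD11b is an integrin chain of myeloid cells; the cells came from a Percoll gradient and were enriched with magnetic beads. Each group had 1 library. The first was Ncr1-cre given saline, the second Ncr1-cre given polyIC, and the third Gzmb-cko given polyIC, with Ncr1-cre;gzmbf/f as its genotype. PolyIC is a double-stranded RNA made to imitate infection by a virus, and the submitters describe the groups as pregnant mice. Ncr1-cre, which all groups share, acts in natural killer cells and other innate lymphoid cells, so the cko is not aimed at neutrophils. There was no Gzmb-cko library with saline. The dose and day of treatment, the number of brains per library and whether dam or fetus carried the genotype are not stated in the labels. With 1 library per group no difference between groups could be tested: the intervals given are 95% intervals for counting error only, and a library effect and a group effect cannot be told apart.

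Neutrophils fill their granules in sequence as they mature. Primary (azurophil) granules are made first, in dividing promyelocytes, and hold elastase, proteinase 3 and myeloperoxidase. Secondary (specific) granules follow in myelocytes and metamyelocytes and hold lactoferrin, cathelicidin and lipocalin 2; division stops at about this stage. Tertiary granules with gelatinase come next, and receptors such as Cxcr2, which lets the cell leave the marrow for blood, come last. The transcription factor C/EBP epsilon, encoded by Cebpe, is needed for the secondary granule genes.

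The 3 granule genes of the rule lie on chromosome 9, and their promoters are shown because they define the cells described. In the GENCODE annotation of GRCm38, Camp is at chr9:109847379-109849617 on the minus strand, Ngp at chr9:110419747-110423012 on the plus strand and Ltf at chr9:111019271-111042767 on the plus strand. The gap between Camp and Ngp is 570.1 kb and that between Ngp and Ltf is 596.3 kb. The stretches below come from the RefSeq promoter table for GRCm38.p6, run 5′ to 3′ on the gene's strand and end where the annotated gene begins. Capitals mark a match to TTGCNNAA on either strand, letters that C/EBP factors are known to bind. The Ngp stretch is chr9:110419558-110419746 and holds 1 match. The Camp stretch is chr9:109849618-109849706 and holds 0. The Ltf stretch is chr9:111019042-111019270 and holds 1, read on the opposite strand.
Ngp: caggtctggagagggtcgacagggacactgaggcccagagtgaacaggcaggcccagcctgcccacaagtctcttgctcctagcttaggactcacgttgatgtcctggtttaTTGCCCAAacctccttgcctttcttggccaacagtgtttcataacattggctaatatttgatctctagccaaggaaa
Camp: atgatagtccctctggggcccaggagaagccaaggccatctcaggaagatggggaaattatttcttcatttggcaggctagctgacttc
Ltf: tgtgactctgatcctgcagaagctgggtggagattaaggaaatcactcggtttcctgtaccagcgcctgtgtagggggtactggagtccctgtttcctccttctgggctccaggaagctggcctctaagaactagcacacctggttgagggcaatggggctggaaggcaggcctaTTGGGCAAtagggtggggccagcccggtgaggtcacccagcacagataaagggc
Of 32851 promoter windows of 250 bases in the table, 9.56% held the motif, and of 21 neutrophil genes with an entry 10 did. The motif and the gene set were chosen after promoters had been viewed, so this is a description of letters and not of binding. The Cebpe transcript itself was present in every library: 557 CPM (a gene's UMIs as a share of all UMIs summed over the members, scaled to 1e+06) in the saline library, 566 in the Ncr1-cre polyIC library and 689 in the Gzmb-cko library.

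The libraries differed in ways that touch what follows. Their lowest barcode held 3133 UMIs in the saline library and 500 in each of the others, and the saline and polyIC libraries shared 71 barcodes, with 63 and 64 for the other pairs; no member barcode was shared. Members had a median of 5192 UMIs in the saline library, 4745 in the Ncr1-cre polyIC library and 5247 in the Gzmb-cko library, from summed totals of 1117028, 1036708 and 352806. Hemoglobin made up 8.44%, 4.14% and 0.0422% of those sums. Most of it sat in a few cells: 12 saline and 5 Ncr1-cre polyIC members with more than 20% hemoglobin held 94.2% and 96.9% of it. The requirement for no macrophage UMI removed 167 of 334 otherwise qualifying cells in the saline library, 48 of 231 in the Ncr1-cre polyIC library and 49 of 106 in the Gzmb-cko library. The removed cells were deeper than the members, with medians of 9780, 7934 and 12502 UMIs. A doublet caller, Scrublet, marked about 2% of kept cells in each library, well under the rate expected from loading, and no member. The part of these differences in the results below was not tested, and second values are given beside several of the results that move with them.

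The granule part of the label was fixed by the selection: Ngp, Camp, Ltf, S100a8 and S100a9, which chose the cells, summed to 256769, 265392 and 286770 CPM, a description only. Markers that did not enter the rule placed the cells among neutrophils. Ly6g, a surface protein of mouse neutrophils, was at 230, 422 and 522 CPM. The lymphocyte genes Gzma, Gzmb, Ncr1 and Cd3e were at 0 in the members of all 3 libraries. Nkg7, also listed for lymphocytes, was at 21.5, 0.965 and 0 CPM, and 1 saline member held 5 or more UMIs of it. Gzmb had 61, 127 and 2 UMIs in the whole libraries, in 4, 6 and 1 barcodes; a count of 0 in members allows up to 2.69, 2.89 and 8.50 CPM. Too few cells of any library carried Gzmb to check the deletion by its counts. Of 7 microglia markers, P2ry12 and Tmem119 were at 0 by the rule, and all 7 summed to 305, 187 and 181 CPM. Choroid plexus markers, among them Ttr, summed to 2519, 1320 and 1310 CPM. The 5 monocyte markers (Ly6c2, Ccr2, F10, Ms4a4c and Fn1) summed to 727, 760 and 1057 CPM, and 35.3%, 41.0% and 59.6% of members held 5 or more UMIs of them. Much of that sum was Ly6c2, which neutrophils also express, at 625, 750 and 1035 CPM; Ccr2 was at 0 in both polyIC-treated libraries. The word immature may not fit all members. Of them, 73.1%, 92.9% and 93.0% held 5 or more UMIs summed over the mature neutrophil markers Cxcr2, Il1b, Mmp8, Mmp9, Csf3r, Retnlg and Ccl6. These markers were not alike. Retnlg was found in 132, 171 and 51 members, Mmp8 in 109, 164 and 49 and Mmp9 in 110, 168 and 51. Cxcr2 was found in 99, 147 and 38 and Csf3r in 43, 79 and 22. Ccl6 was found in only 28, 26 and 8 and Il1b in 3, 2 and 0. The members are named here by the rule.

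Among kept cells, members made up 1.33% (167 of 12556, exact Clopper-Pearson interval 1.14% to 1.55%) in the saline library. The share was 1.56% (183 of 11705, 1.35% to 1.81%) in the Ncr1-cre polyIC library. It was 0.409% (57 of 13951, 0.310% to 0.529%) in the Gzmb-cko library, lower than in the others beyond counting error. Without the macrophage requirement the shares were 2.66%, 1.97% and 0.760%, so the order of the first 2 libraries turned while the Gzmb-cko library stayed lowest. As a share of all neutrophils, members were 68.2% (61.9% to 74.0%), 42.4% (37.7% to 47.2%) and 51.4% (41.7% to 61.0%). With the saline library's floor of 3133 UMIs set in all libraries, the same shares were 68.2%, 63.0% and 62.1%. The gap between saline and polyIC shares was thus much smaller at equal depth limits. It did not shrink under every choice. With at least 5% of UMIs from S100a8 and S100a9, 166, 181 and 57 members stood beside 37, 210 and 39 other neutrophils. The saline share was then 81.8%. The size of the gap therefore depends on which cells are counted as neutrophils. In fetal brain tissue a share of this kind counts cells recovered, and the recovery of each cell type was not measured.

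**Figure D1:**
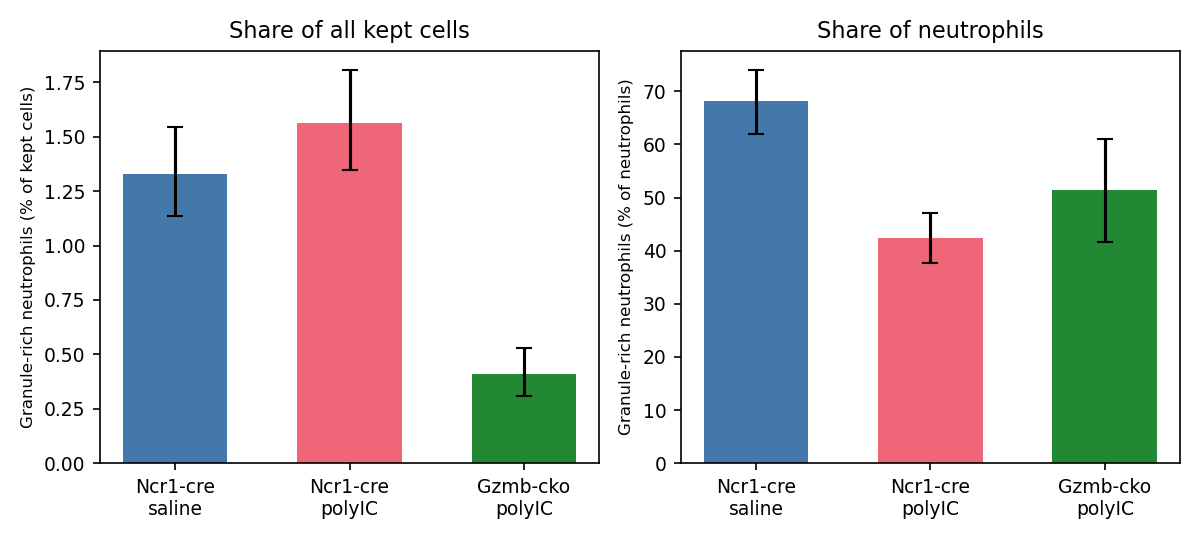
Bars give granule-rich neutrophils as a percent of kept cells (left) and of all neutrophils (right) in the 3 libraries, with 95% Clopper-Pearson intervals for counting error. The Gzmb-cko library had the lowest share of kept cells, 0.409%, and the saline library had the highest share of neutrophils, 68.2%.

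The rule's edge was thinly filled in the saline and Gzmb-cko libraries. A granule gene sum of 20 to 29 UMIs, just inside, was found in 10, 12 and 3 members. A sum of 10 to 19, just outside, was found in 3, 23 and 0 other neutrophils, and 59, 161 and 37 of those had a sum of 0. The median sum of a member was 272, 153 and 256 UMIs, so a typical member was far from the limit, and members of the Ncr1-cre polyIC library held fewest.

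A few secreted or stored proteins dominated the transcripts of these cells. The levels below are UMIs at the 3' end, which do not scale with transcript length. S100a9 was at 114097, 131849 and 141557 CPM and S100a8 at 96747, 88446 and 94225 CPM, the highest of all genes. The stefin A group, small cysteine protease inhibitors, followed: BC100530 was at 44614, 48044 and 44430 CPM and Stfa1 at 43507, 43039 and 41502 CPM. These stefin genes are near-identical neighbours, so the split of UMIs between them is uncertain. Gm5483, Stfa3, Stfa2 and Stfa2l1 of the same group were also among the 20 genes highest in the members. The whole S100 and stefin list of 14 genes took 347453, 369283 and 376864 CPM. The rest of the 20 were Ngp and Camp, Lcn2 (lipocalin 2, which binds bacterial iron carriers), Lyz2 (lysozyme), Retnlg (a resistin-like secreted protein), Tmsb4x and Actb of the actin skeleton, the nuclear RNA Malat1, and 4 hemoglobin genes. Hbb-bs, one of the last, was at 45087, 20248 and 213 CPM, with 54.7% and 96.2% of its saline and Ncr1-cre polyIC UMIs in 5 cells.

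Most secondary granule genes differed by less than 2-fold between libraries, though beyond counting error for many. Ngp was at 20307, 21481 and 24733 CPM, and Camp, the cathelicidin precursor, at 21188, 17390 and 20207 CPM. Ltf, lactoferrin, was at 4430, 6225 and 6049 CPM. These 3 chose the cells and are given as description. Lcn2, which did not, was at 10081, 13675 and 13588 CPM. Cd177, a surface protein stored in these granules, was at 414, 574 and 774 CPM. A pair of genes stood further apart: Olfm4, a granule glycoprotein of a neutrophil subset, was at 139, 502 and 258 CPM, and Slpi, a protease inhibitor, at 400, 1048 and 916 CPM. Both were thus lowest in the saline library. Chil3, a chitinase-like protein, was lowest in the Ncr1-cre polyIC library, at 2534, 2016 and 2954 CPM.

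The primary granule genes Elane, Mpo and Prtn3 were found in a minority of the members of each library. Elane, neutrophil elastase, was at 408, 227 and 22.7 CPM and was found in 13, 4 and 3 members. Mpo, myeloperoxidase, was at 112, 98.4 and 8.50 CPM, in 9, 1 and 1 members. Prtn3, proteinase 3, was at 520, 259 and 377 CPM, in 31, 9 and 4 members. Members with 5 or more UMIs of 6 primary granule genes numbered 21 of 167 in the saline library, 5 of 183 in the Ncr1-cre polyIC library and 4 of 57 in the Gzmb-cko library. Without the macrophage requirement Elane was at 274, 173 and 365 CPM and Prtn3 at 308, 194 and 756 CPM, highest in the Gzmb-cko library. In the saline library the early cells had Fcnb at 1860 CPM against 300.2 CPM in the rest, and Retnlg at 299 CPM against 4339 CPM. They were deep cells, with a median of 11715 UMIs against 4934.

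Mmp8, Mmp9, Retnlg and Cxcr2, listed here as tertiary granule or late genes, were lower in the saline library than in both polyIC libraries. Mmp8, neutrophil collagenase, was at 1009, 2646 and 2029 CPM, and Mmp9, gelatinase, at 434, 1209 and 1097 CPM. Retnlg was at 3420, 9492 and 6924 CPM. Cxcr2, the receptor for the chemokines that draw neutrophils, was at 157, 344 and 232 CPM. Fcnb, ficolin B of early granulocytes, ran against them at 655, 236 and 360 CPM, found in 89, 28 and 14 members. Without cells over 2% hemoglobin Retnlg was at 3565, 9692 and 6924 CPM and Fcnb at 769, 253 and 360 CPM. Without the macrophage requirement they were at 2446, 8311 and 4899 CPM and at 386, 191 and 265 CPM, so the order of the libraries held under both choices. The plot of stage genes shows this crossing between the early and the late genes.

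**Figure D2:**
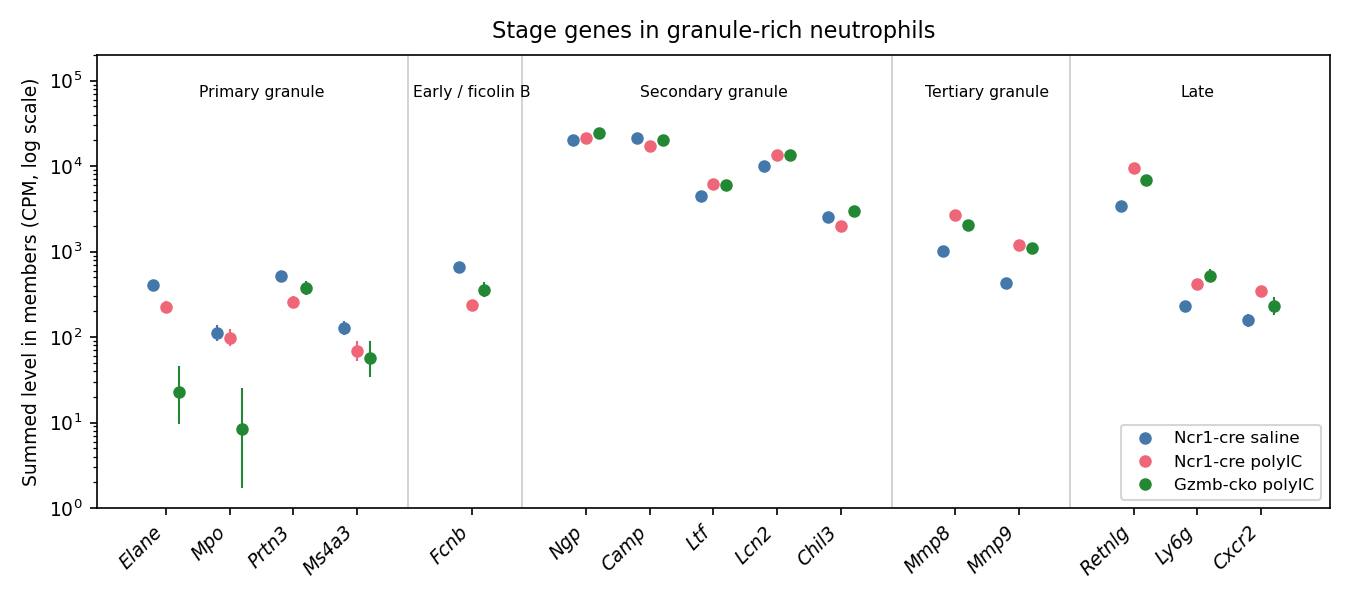
Points give the level of stage genes in granule-rich neutrophils as CPM on a log scale, coloured by library, with 95% Poisson intervals for counting error where these exceed the point. Elane and Fcnb were highest in the saline library, at 408 and 655 CPM, while Mmp8, Mmp9, Retnlg and Cxcr2 were lowest there.

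Members of the polyIC library were first compared with those of the saline library among Ncr1-cre samples. With 1 library each, treatment and library effects cannot be told apart. Of 1695 genes with a mean of at least 50 CPM, 125 were at least 2-fold higher with polyIC (7.37%) and 112 at least 2-fold lower (6.61%), and 63.4% had a ratio above 1. The median gene had a log2 ratio of 0.22. The balance depended on scaling: 86 higher and 141 lower with median of ratios scaling, and 78 higher and 181 lower with a total that omits mitochondrial, ribosomal protein and hemoglobin genes. List medians below are therefore read against the all-gene median, and all are without a test.

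By stage, all lists from the tertiary granule on lay above that median. Of 8 genes listed here as tertiary granule, 7 were higher with polyIC and 4 of them at least 2-fold, with a median log2 ratio of 1.13. Mmp8 was 2.62-fold (2.45 to 2.81), Mmp9 2.78-fold and Adam8, a membrane protease, 2.67-fold higher; Fcnb, at a ratio of 0.361 (0.311 to 0.417), was the exception. Of 14 mature neutrophil genes 11 were higher and 6 at least 2-fold, with a median of 0.90. Retnlg was 2.77-fold (2.67 to 2.88) higher and Mxd1, a repressor that opposes Myc in cells leaving the cycle, 2.60-fold. Ccl6, a chemokine, was lower at a ratio of 0.490, in 28 and 26 members.

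Receptors and surface genes leaned the same way. Of 10 chemokine and cytokine receptors 9 were higher and 6 at least 2-fold, with a median of 1.01. Cxcr4, which holds neutrophils in the marrow, was 2.91-fold higher (1.98 to 4.37) and C5ar1, the receptor for complement C5a, 2.13-fold. Csf1r, the macrophage growth factor receptor, was lower at 0.369 (0.246 to 0.544). All 12 secretory vesicle and surface genes compared were higher, 2 of them at least 2-fold, with a median of 0.75. Those 2 were Fpr1, a receptor for bacterial formyl peptides, at 2.94-fold, and the lectin Clec4d at 2.88-fold. All 9 transcription factors were higher, with a median of 0.61: Trib1 was 3.31-fold and Fosl2 3.08-fold higher, while Cebpe was at 1.02 (0.907 to 1.14).

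Granule gene lists of the earlier stages lay nearer to or below the all-gene median. Of 14 secondary granule genes 11 were higher and 2 at least 2-fold, with a median of 0.45; the 2 were Olfm4 at 3.62-fold (3.02 to 4.35) and Slpi at 2.62-fold. Camp was at a ratio of 0.821. Of 6 primary granule genes 5 were lower, with a median of -0.58, and the exception was Lyz2 at 1.48-fold, which neutrophils also make later. Elane was at 0.555 and Prtn3 at 0.499, and their polyIC UMIs came from 4 and 9 cells. Of these UMIs, 1 cell held 231 of 235 for Elane and 1 cell held 241 of 269 for Prtn3, so both ratios rest on single cells.

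Cell cycle genes were lower throughout with polyIC. All 13 compared were lower and 7 at least 2-fold, with a median log2 ratio of -1.03. Top2a, the topoisomerase of dividing cells, was at 231, 108 and 204 CPM in the 3 libraries, a ratio of 0.468 (0.371 to 0.586) for polyIC over saline. Mki67 was at 205, 122 and 150 CPM and Cenpf, a kinetochore protein, at 98.5, 34.7 and 34.0 CPM. In the Ncr1-cre polyIC library 5 members held 62.5%, 42.9% and 72.2% of the Top2a, Mki67 and Cenpf UMIs. In the saline library 5 members held 23.6%, 25.8% and 42.7%. The polyIC levels thus rest on few cells, which the counting intervals do not cover. With cells holding 2 or more UMIs of 20 cycle genes left out, the list's median was 0.15, still below the all-gene median of 0.39 under that setting. Choosing cells on cycle genes itself affects the list's value.

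Interferon-stimulated genes were at low levels. Of 33 listed, 5 passed the level filter and 4 of these were higher with polyIC, with a median of 0.75. Slfn1, a schlafen family gene, was 2.58-fold higher (2.11 to 3.18), at 123, 319 and 264 CPM. Slfn4 was 2.24-fold higher. Ifitm3 was at 479, 607 and 901 CPM, a ratio of 1.27. Of MHC class I genes, H2-D1 was 2.29-fold and H2-T23 2.81-fold higher, while H2-K1 was at 0.972 and B2m at 1.05.

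By size, 124 genes met the naming rule in the higher direction and 50 in the lower. The highest ratio belonged to Bst1, an ectoenzyme of myeloid cells, at 43.0, 169 and 62.4 CPM, a ratio of 3.93 (2.84 to 5.53). Cdkn1b, which encodes the cycle inhibitor p27, was 3.76-fold higher, and the nuclear RNA Neat1 3.74-fold at 161, 602 and 368 CPM. Plaur, the urokinase receptor, was 3.56-fold and Thbs1, thrombospondin, 3.25-fold higher. The glucose transporter Slc2a3 was 2.99-fold and the kinase Lrrk2 3.06-fold higher; Mrgpra2b, a receptor found on neutrophils, and Fgd4 were also among the 12 with the largest ratios.
On the lower side the histone gene Hist1h2ap stood first at 307, 60.8 and 113 CPM, a ratio of 0.198 (0.149 to 0.260). Dnmt1, which maintains DNA methylation through replication, was at 0.367, and the chromatin genes Nucks1 and Nap1l1 at 0.303 and 0.369. Mt1, a metallothionein, was at 0.243. Apoe was at 1045, 283 and 394 CPM and Ctss, cathepsin S, at 154, 50.2 and 48.2 CPM. Both are abundant in microglia, whose marker list in the members moved the same way (305, 187 and 181 CPM); its part in these ratios was not tested. Ly6e, Tmem256 and Eif3i made up the rest of the 12 with Cenpf and Fcnb.

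**Figure D3:**
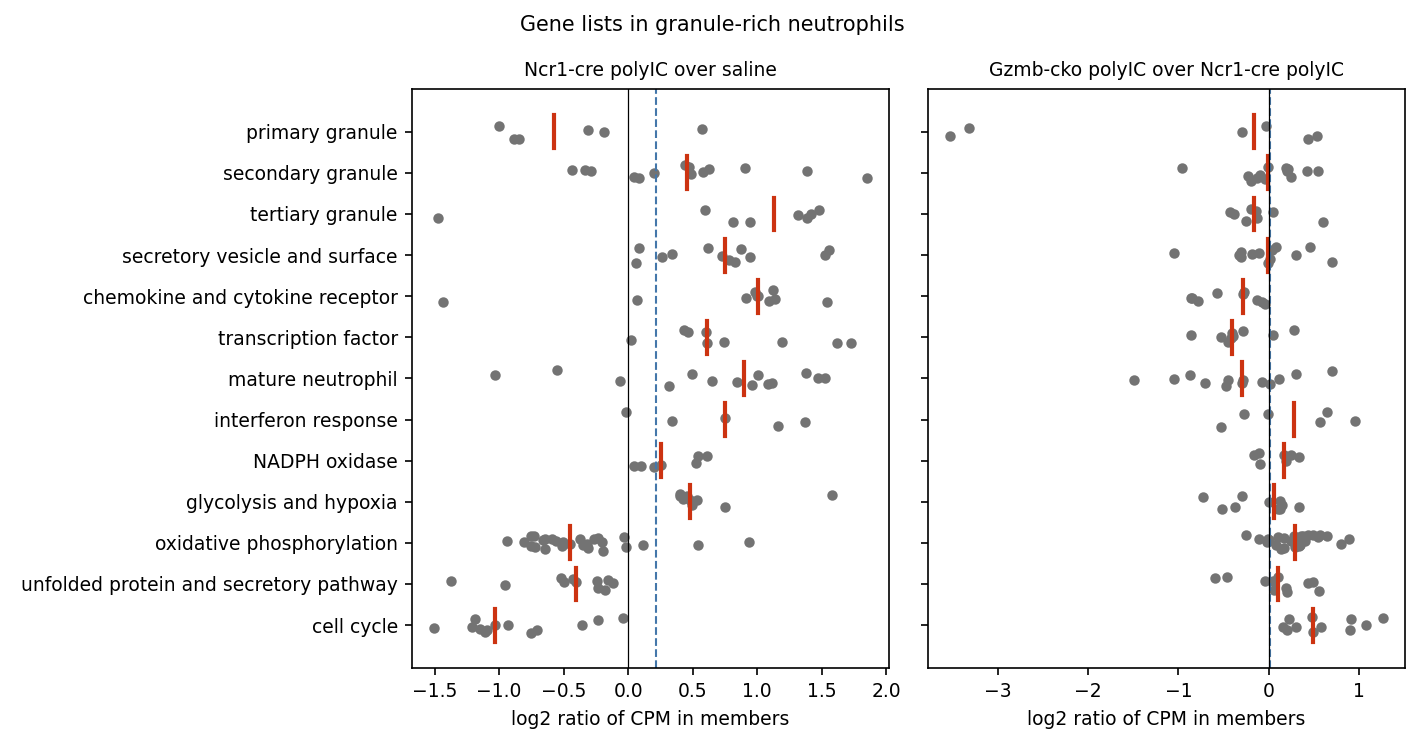
Each point is the log2 ratio of 1 gene's CPM in granule-rich neutrophils, by list, for polyIC over saline (left) and Gzmb-cko polyIC over Ncr1-cre polyIC (right). Red bars are list medians and the dashed line is the median of all genes compared (0.22 and 0.02); the tertiary granule and receptor lists lay highest on the left, at 1.13 and 1.01, and the cell cycle list lowest, at -1.03.

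Members of the polyIC-treated Gzmb-cko library were then compared with those of the polyIC-treated Ncr1-cre library. Here too genotype and library effects cannot be told apart. This comparison shares the Ncr1-cre polyIC library with the previous one. Fewer genes were far apart: of 1777 compared, 21 were at least 2-fold higher (1.18%) and 22 at least 2-fold lower (1.24%), 51.7% had a ratio above 1, and the median log2 ratio was 0.02. Other scalings gave 16 higher and 34 lower with TMM, 17 and 32 with median of ratios, 17 and 29 with the mean of per-cell CPM, and 58 and 40 without the rule's genes in the total. Without the macrophage requirement, 204 genes were at least 2-fold higher and 21 lower, so the count of higher genes rests on that requirement.

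In the Gzmb-cko members all 11 cell cycle genes compared were higher, 2 of them at least 2-fold, with a median of 0.49. Birc5, survivin, was at 140, 64.6 and 156 CPM, 2.41-fold higher (1.66 to 3.50), and Cdk1, the mitotic kinase, 2.11-fold (1.25 to 3.52). Birc5 was found in 9 Gzmb-cko members, and 5 of these held 89.1% of its UMIs. For Top2a, Mki67 and Cdk1, 5 Gzmb-cko members held 94.4%, 90.6% and 85.7%, so these ratios rest on few cells. Members with 2 or more UMIs of 20 cycle genes were 29.8%, against 31.7% in the Ncr1-cre polyIC library. That order turned without the macrophage requirement. Mature neutrophil genes were higher for 4 of 13 and lower for 9, 2 of them at least 2-fold, with a median of -0.30. Those 2 were Dusp1, a phosphatase induced by stress, at 0.357 (0.202 to 0.592), and Clec4d at 0.484. All 9 receptors were lower, with a median of -0.28 and none past 2-fold; Cxcr2 was at 0.675 (0.524 to 0.860).

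Secondary granule genes did not stand apart, with 6 of 13 higher and a median of -0.01. Olfm4 was at 0.514 (0.407 to 0.644), and Chil3 was 1.46-fold higher (1.36 to 1.58). Tertiary granule genes had 2 of 8 higher and a median of -0.17: Mmp8 was at 0.767 (0.706 to 0.833), Mmp9 at 0.908 (0.808 to 1.02) and Fcnb at 1.52 (1.22 to 1.90). The Fcnb ratio rests on few cells: 5 members held 84.25% of its UMIs in the Gzmb-cko library and 62.45% in the Ncr1-cre polyIC library. For Chil3 these shares were 46.8% and 31.4%. Of the interferon list 3 of 6 were higher, with a median of 0.28; Ifitm3 was 1.49-fold (1.29 to 1.70) and Ifi27l2a 1.95-fold higher, the latter in 16 and 7 members.

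The largest ratios here rested on few cells or few UMIs. Mpo was at 0.0864 and Elane at 0.10, but all Mpo UMIs of the Ncr1-cre polyIC members lay in 1 cell. Elane's lay in 4 cells, with 231 of 235 in 1 of them. Without the macrophage requirement both ratios turned, to 2.68 for Mpo and 2.12 for Elane. Among genes spread over more cells, Bst1 was at 0.369 (0.226 to 0.577) and Il18rap, a subunit of the interleukin 18 receptor, at 0.442. Anapc5, a subunit of the anaphase-promoting complex, was 2.64-fold higher (1.62 to 4.27), Gtf2a2 2.58-fold and the splicing gene Snrnp27 2.55-fold. These were also concentrated: 5 Gzmb-cko members held 65.7%, 44.4% and 38.5% of their UMIs, in that order. In all, 14 genes met the naming rule in the higher direction and 17 in the lower. Dazap1, Ssrp1, Tomm5, Dbi, Anapc13, Tbrg1 and Med21 were also among the 12 largest higher ratios, from 2.01-fold for Med21 to 2.32-fold for Dazap1. The share of their UMIs held by 5 Gzmb-cko members ran from 39.4% for Anapc13 to 76.9% for Med21. The lower set also held Caprin1, Tpm4, Ptp4a1, Plxnc1, Numb and Ankrd12.

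Single members spread from dividing cells with early genes to resting cells with late genes. Cells with 2 or more UMIs of 20 cycle genes, here called cycling, were 80 of 167 (47.9%), 58 of 183 (31.7%) and 17 of 57 (29.8%). With each cell thinned to 2300 UMIs the shares were 36.5%, 19.7% and 17.5%, with the saline library still highest. Without the macrophage requirement the unthinned shares were 57.2%, 32.9% and 49.1%, so the place of the Gzmb-cko library rests on that requirement. The order of the saline over the Ncr1-cre polyIC library was not limited to members: after thinning, other neutrophils were at 28.2%, 15.8% and 20.9% and the microglia drawn per library at 36.9%, 27.2% and 32.3%. The class is a range cut at a low count: 11, 25 and 6 cells sat exactly at 2 UMIs and 32, 37 and 18 at 1. Cycling members were also deeper, with medians of 7914, 6116 and 6950 UMIs against 4321, 4615 and 4763 in the rest. The part of depth in the contrasts below was not tested. Per 10000 UMIs, Spearman's rho between cycle genes and the 6 late genes was -0.59, -0.15 and -0.30. The same division of genes between cycling and other members recurred within every library. In the saline library Fcnb was at 974 CPM in cycling and 169 CPM in other members, Camp at 24781 and 15719 CPM, and Retnlg at 1123 and 6917 CPM. In the Ncr1-cre polyIC library Fcnb was at 501 and 38.7 CPM, Camp at 23263 and 13010 CPM, and Retnlg at 5854 and 12204 CPM. In the Gzmb-cko library Fcnb was at 731 and 61.4 CPM, Camp at 25083 and 16280 CPM, and Retnlg at 3362 and 9793 CPM. Ltf went with the late genes: 3483 CPM in cycling and 5871 CPM in other saline members, 4925 and 7195 CPM in the Ncr1-cre polyIC library, and 4696 and 7137 CPM in the Gzmb-cko library. Ngp differed less, at 19858 and 20992, 22335 and 20845, and 25204 and 24354 CPM.
Among members that were not cycling, Retnlg and Mmp8 (1899, 3452 and 2614 CPM) were again lowest in the saline library.

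Across cells, 6 late genes together (Mmp8, Mmp9, Retnlg, Cxcr2, Csf3r and Ccl6) had a median of 35.4, 154 and 124 UMIs per 10000. The highest cell held 537, 530 and 400 per 10000 and the lowest 0, so the libraries overlapped over nearly the whole range. The sum of Ngp, Camp and Ltf had a median of 529, 335 and 517 UMIs per 10000. That sum chose the cells, so its relation to the late genes is a description: Spearman's rho was -0.50 in the saline library (n = 167), -0.69 in the Ncr1-cre polyIC library (n = 183) and -0.76 in the Gzmb-cko library (n = 57). The points share a library and each cell's total, and total UMIs ran with the late genes as well, at -0.54, -0.57 and -0.60.

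**Figure D4:**
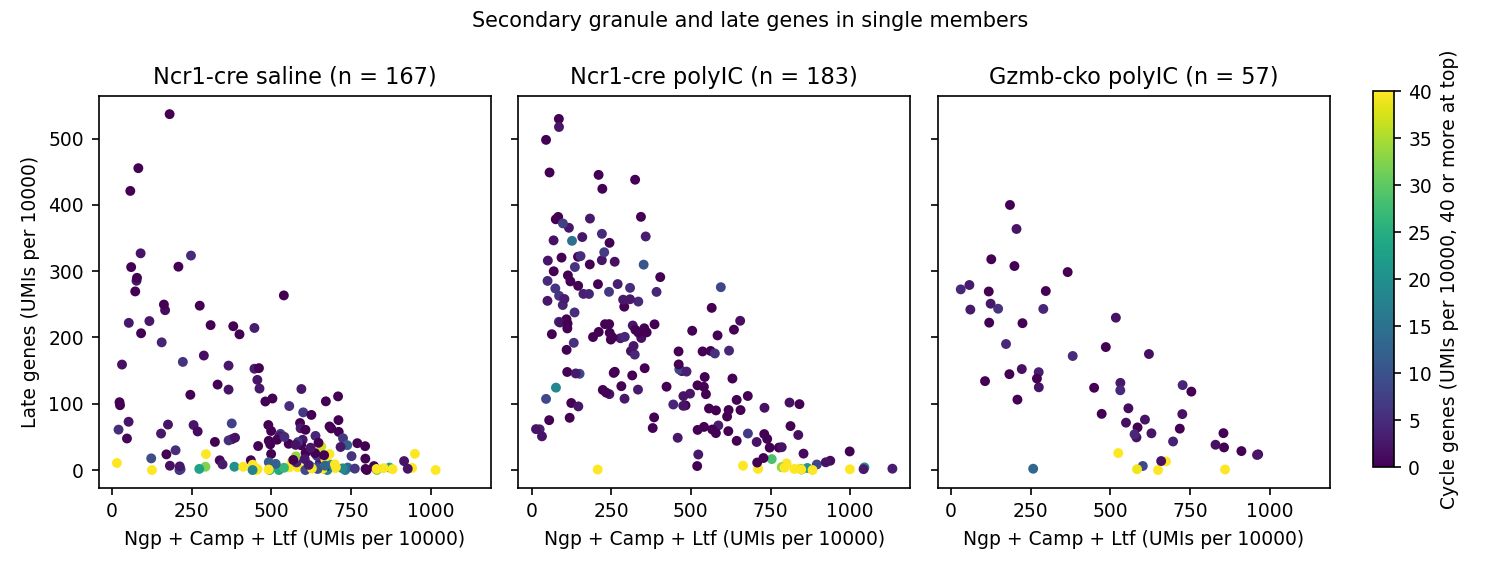
Each point is 1 granule-rich neutrophil; the x axis is the sum of Ngp, Camp and Ltf and the y axis the sum of 6 late genes, both as UMIs per 10000, coloured by cycle gene UMIs per 10000. Cells with many cycle UMIs lie along the bottom, and the late gene median was 35.4 in the saline library, 154 in the Ncr1-cre polyIC library and 124 in the Gzmb-cko library.

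Because late genes ran with depth, stage genes were also read within ranges of UMIs per cell. Among members with 3133 to 4999 UMIs (75, 92 and 24 cells), Retnlg was at 7746, 15256 and 13760 CPM and Mmp8 at 2208, 4110 and 3541 CPM. Among those with 5000 to 7999 UMIs (47, 49 and 21 cells), Retnlg was at 2869, 9331 and 7046 CPM and Fcnb at 364, 97.9 and 95.2 CPM. Saline members were lowest in Retnlg and highest in Fcnb in both ranges. Among the deepest, with 8000 or more UMIs (45, 29 and 9 cells), Retnlg was at 1196, 2203 and 765 CPM, lowest in the Gzmb-cko library, which had only 9 such cells.

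**Figure D5:**
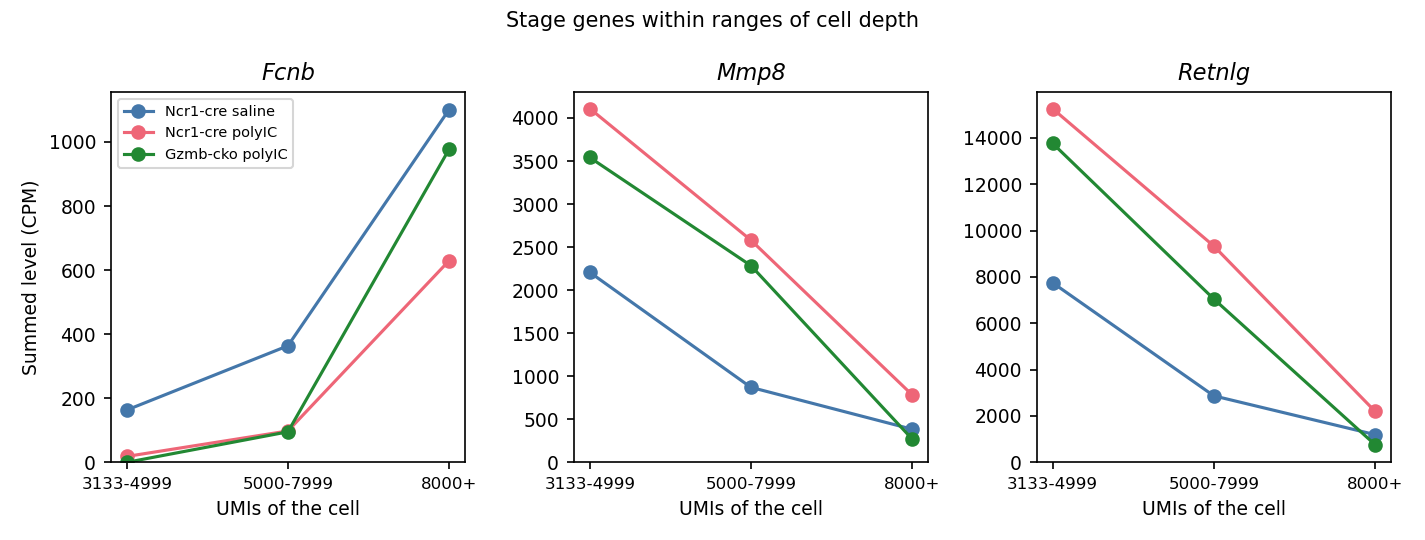
Levels of Fcnb, Mmp8 and Retnlg (CPM over the members of a depth range) against the UMIs of the cell, by library. In the first 2 ranges the saline library was highest in Fcnb and lowest in Mmp8 and Retnlg; in the deepest range the Gzmb-cko library, with 9 cells, was lowest in Retnlg at 765 CPM.

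Set against the other neutrophils of the same library, members were chosen by Ngp, Camp and Ltf, so all differences are description. Of 2031 genes, 45 were at least 2-fold higher in every library (2.22%) and 174 at least 2-fold lower in every library (8.57%). Besides the rule's genes, the largest ratios were for Serpinb1a, an inhibitor of neutrophil serine proteases, at 35.0, 10.9 and 14.4, and for Lta4h, which makes leukotriene B4, at 22.5, 17.5 and 5.29. Cebpe was 11.8-fold, 3.43-fold and 4.97-fold higher in the members, and Lcn2 9.68-fold, 4.27-fold and 5.20-fold. Fcnb was 6.68-fold, 4.54-fold and 5.20-fold higher, and Prtn3, AA467197, Zmpste24, Syne1 and Chil3 were also among the 12 with the largest ratios. Late genes were mixed. Mmp8 was at 1.43, 1.21 and 1.23, Mmp9 at 3.49, 1.39 and 1.82 and Retnlg at 1.11, 0.836 and 0.641. Cxcr2 was at 1.0, 0.562 and 0.594, Csf3r, the receptor for the growth factor of granulocytes, at 0.265, 0.204 and 0.289, and Ccl6 at 0.188, 0.0489 and 0.0358.

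The genes lower in members belong to monocytes and antigen-presenting cells as well as to mature neutrophils. Il1b, an inflammatory cytokine, was at 0.0416 and 0.00738 in the first 2 libraries and was not found in Gzmb-cko members. Cd74, a chaperone of MHC class II, was at 0.0470, 0.0442 and 0.00374, and H2-Aa, H2-Eb1 and H2-Ab1 went with it. Vcan, Mnda, Zeb2 and Klf4, known from monocytes, and S100a10, Crip1 and the tubulin Tubb2b completed the 12 with the smallest ratios. The other neutrophils were a mixed class: S100a8 and S100a9 took a median of 4.78%, 14.8% and 11.2% of their UMIs, against 23.9% to 25.6% across the libraries' members. When both classes were held to at least 5% (166, 181 and 57 members against 37, 210 and 39 others), Cebpe was still 7.75-fold, 2.63-fold and 3.78-fold higher in the members. Retnlg was then at 0.515, 0.582 and 0.370 and Cxcr2 at 0.761, 0.402 and 0.347. With the saline library's UMI floor in all libraries instead, Retnlg was at 1.11, 1.09 and 0.826 and Cxcr2 at 1.0, 1.05 and 0.872, so these directions depend on which cells are compared. Under the 5% limit Cd74 was at 0.488, 0.0439 and 0.389, and H2-Aa was at 0.0290 and 0.389 in the polyIC libraries. The low Cd74 ratios of the saline and Gzmb-cko libraries thus rest in large part on other neutrophils poor in S100 UMIs. In the Ncr1-cre polyIC library the limit hardly moved Cd74 or H2-Aa, the latter at 0.0323 without it. Members held only 12, 7 and 1 Cd74 UMIs. The median depth of the other neutrophils was 4967, 2734 and 3741 UMIs.

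Neutrophil transcripts were also counted in microglia, which sets a background for shares of cells with a UMI. Among 1000 microglia drawn per library, 72, 25 and 12 had an Ngp UMI and 40.9%, 20.6% and 10.1% an S100a9 UMI, with median depths of 4912, 5513 and 5941 UMIs. In members, an Fcnb UMI was found in 53.3%, 15.3% and 24.6% of cells, against 5, 3 and 1 of those microglia. After thinning to 2300 UMIs the members' Fcnb shares were 40.7% (33.2% to 48.6%), 9.29% (5.51% to 14.5%) and 19.3% (10.1% to 31.9%). The saline share lay above both others, and the last 2 intervals overlapped.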

How the data were processed

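Members and gene lists were chosen with earlier results of these data known. The authors deposited raw UMI counts (27998 genes by barcode, no normalization). Cell Ranger 5.0.0 wrote them, per the file headers; Cell Ranger 3.0.1, STAR and mm10 appear in the submitters' processing notes. How barcodes were called is not stated. Member counts were summed by library and scaled to CPM, with exact Poisson intervals for levels and conditional binomial intervals for ratios. A gene entered a comparison if its CPM averaged at least 50 across the libraries compared. Genes singled out by size needed 50 UMIs in total, a ratio past 2, an interval clear of 1 and an unchanged direction with TMM and with per-cell CPM; the 12 largest each way were named, except genes not reported here. Scrublet (scanpy 1.11.5) called doublets, which were left in. Of the list and marker genes, 6 symbols were not matched, among them Itgam, which has 2 IDs in the table. The scripts were tested on simulated counts. Alternatives changed thresholds, depth floor, filters and scaling.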

Additional observations from a re-analysis of the deposited data

How the results depend on the processing

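No paired analysis was possible because each group has 1 library. Of the values that answer a comparison, 117 moved by less than their counting interval (or, for counts of genes, less than 1.5 times) and 31 moved further. These 117, and the 1414 below, include values that an alternative could not move. Leaving out called doublets or requiring 500 genes left the members unchanged, and a filter at 100 CPM cannot change a single gene's ratio. The tallies therefore overstate stability. Alternatives on macrophage genes, hemoglobin, S100 share and the shortened cycle list were chosen after seeing the data. The share of kept cells moved to 2.66%, 1.97% and 0.760% without the macrophage requirement, and in the Ncr1-cre polyIC library to 1.98% with the saline depth floor and 2.13% with at most 5% mitochondrial UMIs. The share of neutrophils moved in the saline library to 61.5% without the macrophage requirement, 74.0% without cells over 2% hemoglobin and 81.8% with at least 5% S100 UMIs, and with the depth floor to 63.0% and 62.1% in the other libraries.
For polyIC over saline, counts moved to 78 higher and 181 lower without mitochondrial, ribosomal protein and hemoglobin genes, 55 higher at a mean of 100 CPM, 1192 and 1464 without a filter, and 62 lower without cycling cells. For Gzmb-cko over Ncr1-cre polyIC they moved to 42 higher (5% mitochondrial UMIs), 204 higher (macrophage requirement dropped), 34 lower (TMM), 58 and 40 (rule genes out of the total), 7 and 7 (100 CPM), 1264 and 1893 (no filter) and 51 lower (without cycling cells). For members over other neutrophils, lower genes numbered 79 (macrophage requirement dropped), 307 (hemoglobin), 441 (without mitochondrial, ribosomal protein and hemoglobin genes) and 88 (100 CPM), and higher genes 88 (rule genes out of the total).
Of the values for single genes and lists, 1414 stayed, 182 moved further and 22 turned direction. For polyIC over saline, S100a8 went to 1.14 (macrophage requirement dropped), and Ngp to 0.982 (median of ratios), 0.947 (without mitochondrial, ribosomal protein and hemoglobin genes), 0.882 (per-cell CPM) and 0.993 (without cycling cells). Without cycling cells Hmgb2 went to 1.11, the cell cycle list to 0.15 and the primary granule list to 0.0773. Both list medians stayed below the all-gene median of 0.39 under that setting. For Gzmb-cko over Ncr1-cre polyIC, dropping the macrophage requirement turned Elane (2.12), Mpo (2.68), Ngp (0.888), Cd177 (0.880), Ly6g (0.714), S100a8 (0.790), S100a9 (0.798), and the medians of the immediate early (0.0807), NADPH oxidase (-0.17) and primary granule (1.36) lists. The primary granule median also turned to 0.00021 (thresholds of 10 UMIs), 0.24 (per-cell CPM), 0.20 (100 CPM) and 0.0774 (without cycling cells). The cause was not tested. Leaving out cells with the whole cycle list was not run, since 1, 4 and 0 members would remain. Only 57 Gzmb-cko members limit every ratio that uses that library.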

Other observations

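Genes of energy metabolism differed in direction between pathways in the Ncr1-cre polyIC members. Of 27 oxidative phosphorylation genes 24 were lower than with saline, none 2-fold, with a median log2 ratio of -0.45 against 0.22 for all genes; Cox6c was at 357, 212 and 315 CPM in the saline, Ncr1-cre polyIC and Gzmb-cko libraries. All 9 glycolysis genes compared were higher, against 63.4% of all genes compared, with a median of 0.48. Gapdh was at 1304, 1755 and 1919 CPM and Pkm at 407, 589 and 652 CPM. The Gzmb-cko members stood above the Ncr1-cre polyIC members in 23 of 27 oxidative phosphorylation genes, with a median of 0.30. Of all genes in that comparison 51.7% were higher, with a median of 0.02. The interval lay above 1 for 9 of the 27, and the median was 0.18 with the mean of per-cell CPM. All 11 genes of the unfolded protein and secretory pathway list were lower with polyIC, with a median of -0.40. The interval lay below 1 for 2 of them. Sec61g, a subunit of the channel into the endoplasmic reticulum, was at a ratio of 0.385 (0.305 to 0.483).

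The 7 NADPH oxidase genes, which make the oxidative burst, were higher with polyIC, none 2-fold, with a median of 0.26, near the all-gene median of 0.22; Ncf1 was at 457, 657 and 587 CPM. With polyIC, 13 of 17 genes in the immediate early and heat shock list were higher, against 63.4% of all genes compared: Zfp36 was 2.25-fold higher, while the chaperone Hsp90aa1 was at 0.561.

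Xist without Y-linked UMIs was found in 29, 41 and 12 members and Y-linked UMIs without Xist in 28, 18 and 9, with both in 2, 1 and 1, so each library held cells of both sexes.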
